A study of Rattus norvegicus with 25 samples.

Results

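The protein disulfide isomerases (PDIs) and the oxidases that recharge them were examined as mRNA in stably transfected McArdle-RH7777 cells, a hepatoma of the rat that makes and secretes apoB lipoproteins. The group comprised 10 genes, namely P4hb, Pdia2, Pdia3, Pdia4, Pdia5, Pdia6, Txndc5, Txndc12, Ero1a and Ero1b. Every Affymetrix probe set whose only gene symbol was one of these was taken. This gave 13 probe sets of the 31042 tested, and 10 of 14217 genes with a probe set of their own. Pdia3, Ero1a and Ero1b had 2 probe sets each, and the brighter of the pair stands for the gene unless stated. Levels are log2 signals, so a difference of 1 is a 2-fold change.

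PDIs are enzymes of the endoplasmic reticulum (ER) lumen that form, break and rearrange disulfide bonds in secretory proteins through active sites built on the thioredoxin fold. The ER oxidases Ero1a and Ero1b take electrons from reduced PDI and pass them to oxygen, which leaves the PDI ready to oxidise its next client. Hepatocytes depend on this system because albumin, clotting factors and apolipoproteins leave the cell with disulfide bonds. P4hb, the founding PDI, has further duties as the small subunit of microsomal triglyceride transfer protein (MTP), which loads lipid onto apoB, and as the beta subunit of collagen prolyl hydroxylase.

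The cells differed in the Sar1 construct they expressed. Sar1 is the small GTPase whose GTP-bound form starts assembly of the COPII coat on vesicles leaving the ER, and the H79G change leaves it unable to complete GTP hydrolysis. There were 2 control lines with 2 and 3 arrays, 1 Sar1A line with 4 arrays, 2 Sar1B lines and 2 Sar1B:H79G lines with 4 arrays each, 25 arrays in all. Constructs were FLAG-tagged human sequences in a vector under the tetracycline repressor, each line was grown from a picked clone, and the controls are described as empty vector cells. All cells, controls included, were kept under blasticidin and Zeocin and received 1 µg/ml tetracycline for 24 h before harvest. The paper reports more recombinant Sar1 protein in Sar1A than in Sar1B:H79G lines, and a larger excess over Sar1B lines. Groups therefore differed in construct level as well as construct, and the part of that level in any difference was not tested.

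The arrays of a line were technical replicates, so the line mean was the unit of comparison, and p-values measured only the spread between lines. Array medians lay between 8.10 and 8.16, and arrays of a line correlated at a median r of 0.995. Of 8 hepatocyte markers, 7 were measured, with means from 10.49 (Hnf4a) to 14.28 (Afp), whereas fibroblast, leukocyte and endothelial markers lay between 6.64 (Pecam1) and 8.15 (Col1a1). In Sar1B:H79G versus control cells, 3 of the 7 hepatocyte markers were lower (Apob, Hnf4a and Serpina1) and 0 of 5 markers of the other cell types were called. By the same test, 10.6% of all genes were lower and 13.4% higher. In bulk RNA of a cloned line, fewer cells with a high marker level cannot be told apart from less marker RNA per cell. All control arrays belonged to 1 array series and all others to a second, so a difference of any group from control cells cannot be told apart from one between array series. For the spiked-in RNAs, 5′ minus 3′ signal was -1.69 in control arrays and -0.79 in the others, and that of actin was -0.88 and -0.59. The part of these values in any difference from control cells was not tested. Whether the rat probe sets read the human constructs was not tested.

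In Sar1B:H79G cells, mRNA levels of 4 of the 10 genes were higher than in control cells and 0 were lower (limma on line means, Benjamini-Hochberg adjustment over all probe sets). These were P4hb, the oxidase Ero1a, Pdia3 and Txndc5. By the same test 24% of all genes differed between these groups, with 13.4% higher and 10.6% lower. The median difference of the 10 genes was 0.21, against 0.02 over all genes, and 9 of the 10 lay above 0. The exception was Pdia4, whose mean was 0.50 below that of control cells without passing the test (adjusted p = 0.19). Most of the 10 genes have bright probe sets, and the bright end of the signal scale was lower in control cells, as given below. Over probe sets above the median signal, the median difference was 0.05. The part of the signal scale in the median of the 10 genes was not tested. Without control line 2 the count was 0 of 10, and without Sar1B:H79G line 1 it was 2, where 5.52% and 13.6% of all probe sets were called, against 22.3% with all lines.

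**Figure D1:**
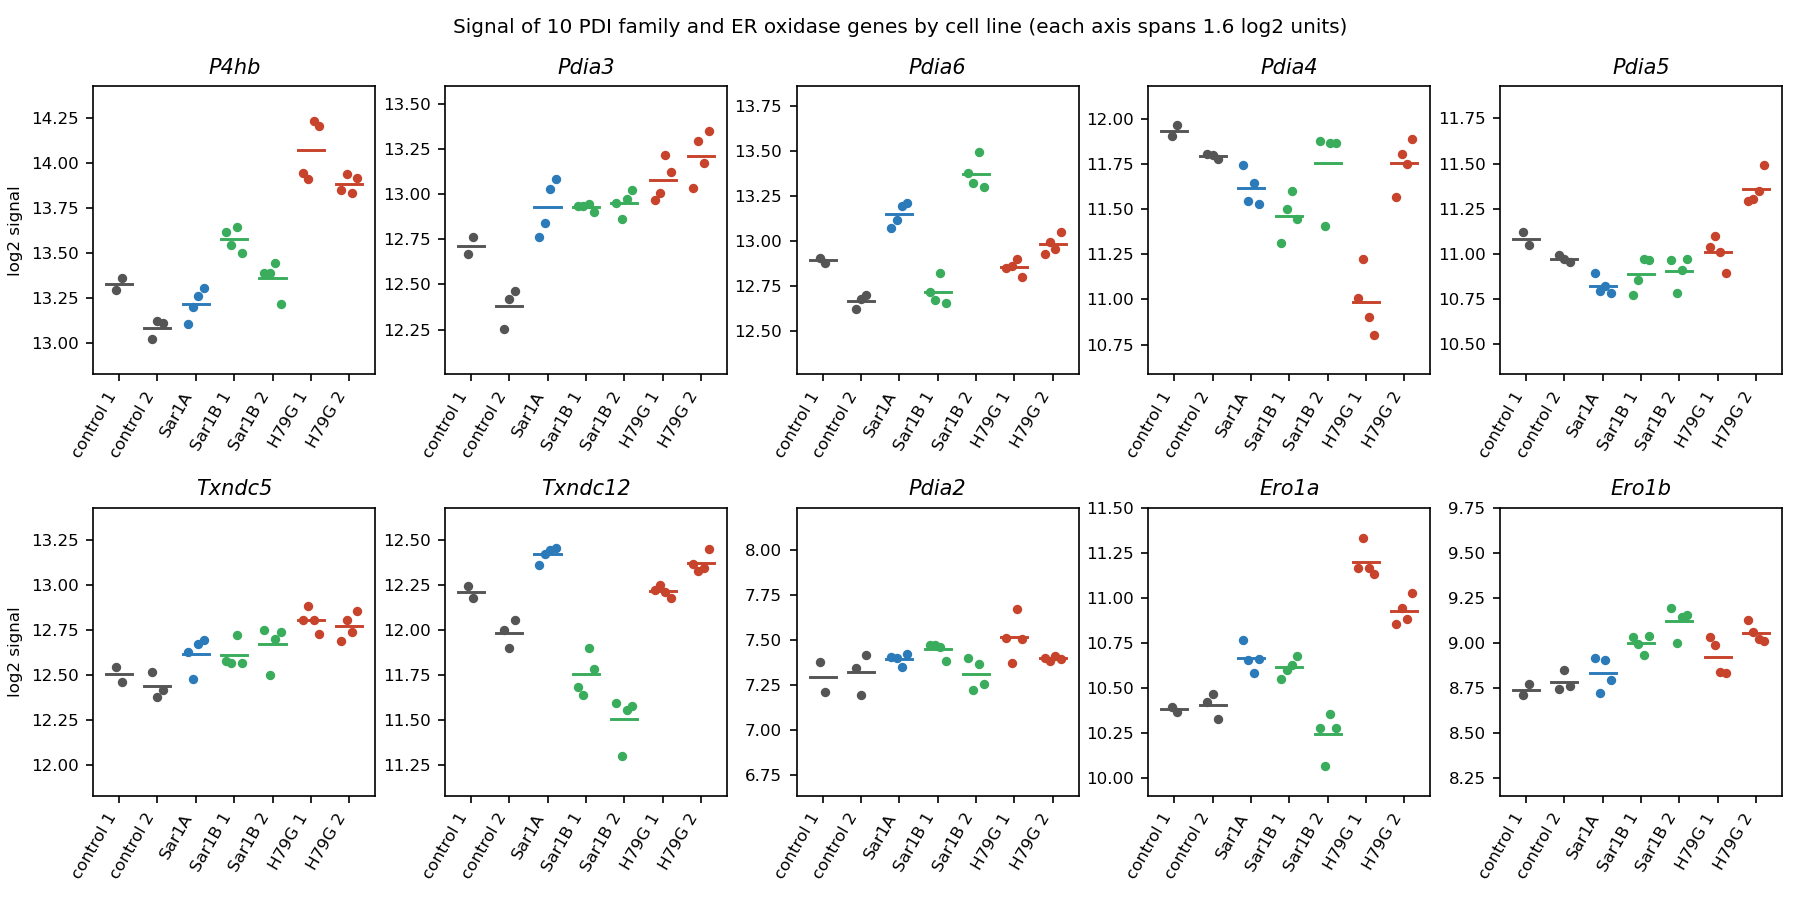
Log2 signal of the brighter probe set of each of the 10 genes in the 7 cell lines. Points are arrays, bars are line means, and H79G stands for Sar1B:H79G. P4hb and Ero1a were highest on the 8 arrays of the Sar1B:H79G lines, Txndc12 was lowest in the 2 Sar1B lines, and Pdia4 differed by 0.77 between the 2 Sar1B:H79G lines.

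P4hb (probe set 1367635_at) had line means of 13.33 and 13.09 in control cells, 13.22 in Sar1A cells, 13.58 and 13.36 in Sar1B cells, and 14.07 and 13.88 in Sar1B:H79G cells. All 8 Sar1B:H79G arrays lay above every other array, and the arrays of the other 3 groups overlapped. The difference from control cells was 0.77 ± 0.12 (SE), a 1.71-fold increase (95% interval 1.39 to 2.10, adjusted p = 0.0100), and it exceeded that of 96.6% of genes. Against Sar1B and Sar1A cells it was 0.51 ± 0.12 (adjusted p = 0.058) and 0.76 ± 0.15 (adjusted p = 0.060). The difference from Sar1B cells was called in 6 of 15 other settings, and adjusted p reached 0.24 in the rest. The lowest, 4.13e-07, came with each array as a replicate, which treats technical replicates as independent. Arrays with the line as a random block gave 3.74e-05. On line means the calls came with quantile normalization, described next (0.39, adjusted p = 0.038), and with only probe sets above the median signal (0.043). The line number as a block (0.016) and the mean of a gene's probe sets (0.049) also gave calls. The order of the group means was Sar1B:H79G at 13.98 ± 0.13 (SD, n = 2), Sar1B at 13.47 ± 0.15 (n = 2), Sar1A at 13.22 (n = 1) and control at 13.21 ± 0.17 (n = 2). Sar1A and control cells differed by 0.01 ± 0.15, far less than the spread between lines. Without control line 2 the call against control cells was lost at a difference of 0.65 (adjusted p = 0.074).

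The P4hb probe set was among the brightest on the arrays, above 99.5% of the others. The bright end of the signal scale itself was lower in control cells: the 99th percentile of log2 signal was 12.91 and 12.72 in the control lines and 13.00 to 13.16 in the others. Giving all arrays the same distribution (quantile normalization) reduced the P4hb difference to 0.40 ± 0.08, still called (adjusted p = 0.021). Under that scaling the count was 1 gene instead of 4, while the share of all probe sets called was 23.4% instead of 22.3%.

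P4hb was shown with its start site because it changed most among the 10 genes. RefSeq windows of 250 bases before a start site (GRCr8) were matched for 7 of the 10 genes. None was matched for Pdia3, Pdia6 and Ero1a, so Pdia3 and Ero1a, also higher in Sar1B:H79G cells, were not searched. The windows of P4hb and Txndc5, higher in Sar1B:H79G cells, are set beside that of Ero1b, which did not pass the test. Capitals mark CCAAT and CCACG on either strand (ATTGG and CGTGG when read from the other one) and the full ER stress response element, which is CCAAT, 9 bases of any kind and CCACG and so contains both. In mammals this element is bound by ATF6 together with NF-Y.
P4hb, chr10:106346912-106347161, minus strand: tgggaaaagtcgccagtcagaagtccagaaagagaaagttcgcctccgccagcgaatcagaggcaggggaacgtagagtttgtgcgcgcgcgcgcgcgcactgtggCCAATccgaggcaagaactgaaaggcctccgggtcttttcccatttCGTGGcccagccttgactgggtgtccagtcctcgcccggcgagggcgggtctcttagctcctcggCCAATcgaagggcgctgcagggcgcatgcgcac
Txndc5, chr17:26495217-26495466, plus strand: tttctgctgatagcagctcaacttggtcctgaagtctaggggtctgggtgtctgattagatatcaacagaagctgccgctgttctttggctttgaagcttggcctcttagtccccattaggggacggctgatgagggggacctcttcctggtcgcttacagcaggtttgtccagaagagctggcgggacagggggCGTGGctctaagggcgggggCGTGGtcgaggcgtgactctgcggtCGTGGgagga
Ero1b, chr17:92941432-92941681, plus strand: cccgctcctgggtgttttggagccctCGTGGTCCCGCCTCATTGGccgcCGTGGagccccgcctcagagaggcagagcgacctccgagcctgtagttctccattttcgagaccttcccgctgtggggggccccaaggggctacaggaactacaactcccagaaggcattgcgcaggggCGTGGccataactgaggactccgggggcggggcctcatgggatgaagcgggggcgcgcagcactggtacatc

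The full element was found in 1 of the 7 windows, that of Ero1b, on the minus strand 224 to 206 bases before the start, and in 0.0657% of 33469 windows of the same length. The Ero1b window lies inside the span that RefSeq gives for the gene, at a start site downstream of its outermost one. CCACG occurred in 5 of the 7 windows against 27.2% of all windows, and CCAAT in 3 of the 7 against 34.0%. P4hb carried CCAAT at 2 positions and CCACG at 1, and Txndc5 carried CCACG at 3 positions. The related elements ATTGG with 1 base of any kind and CCACG (0.0418% of windows), TGACGTGG (0.52%) and TTGCATCA (0.693%) were in none of the 7 windows, searched on both strands. ACGTG, the core of the hypoxia response element, which TGACGTGG contains, was in 4 of the 7 windows (Pdia2, Pdia4, Pdia5 and Txndc12) against 16.6% of all windows. A match describes letters in these windows only.

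Pdia3 (ERp57) works with the lectin chaperones calnexin and calreticulin on glycoproteins. Its brighter probe set, 1398788_at, read 12.71 and 12.38 in control lines, 12.93 in Sar1A cells, 12.93 and 12.95 in Sar1B lines, and 13.08 and 13.21 in Sar1B:H79G lines. Control line 2 was lowest and the Sar1B:H79G lines were highest, with Sar1A and Sar1B in between. The difference of Sar1B:H79G from control cells was 0.60 ± 0.12 (1.52-fold, adjusted p = 0.019). Without control line 2 its adjusted p was 0.070, without Sar1B:H79G line 2 it was 0.066, and with equal distributions the difference was 0.34 (adjusted p = 0.062).

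The second Pdia3 probe set, 1392920_at, did not follow the first. It read 8.42 and 8.62 in control lines, 8.14 in Sar1A cells, 8.29 and 8.09 in Sar1B lines, and 8.12 and 8.27 in Sar1B:H79G lines, so control cells were highest on it. Its Sar1B:H79G difference from control cells was -0.32 ± 0.11 (adjusted p = 0.076), and its line means correlated with those of the brighter probe set at r = -0.81 (n = 7 lines). With the mean of both probe sets the Pdia3 difference was 0.14 (adjusted p = 0.23). The direction for Pdia3 therefore holds for the brighter probe set only.

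Txndc5 (ERp46) is a PDI with several thioredoxin-like domains that introduces disulfide bonds rapidly. It read 12.51 and 12.44 in control lines, 12.62 in Sar1A cells, 12.61 and 12.67 in Sar1B lines, and 12.81 and 12.77 in Sar1B:H79G lines. Arrays of the Sar1B:H79G lines (12.69 to 12.88) lay above those of the control lines (12.38 to 12.55) but overlapped those of the Sar1B lines. The difference from control cells was 0.32 ± 0.06 (1.25-fold, adjusted p = 0.021). This was the smallest of the 4 increases, called in 10 of 15 settings against 11 for Pdia3, 11 for Ero1a and 14 for P4hb. With equal distributions it was 0.07 (adjusted p = 0.50), and the call was lost without control line 2, Sar1B:H79G line 1 or Sar1B:H79G line 2 (adjusted p = 0.10, 0.081 and 0.058).

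The oxidase Ero1a was higher in Sar1B:H79G cells on both of its probe sets. On 1389297_at it read 10.38 and 10.41 in control lines, 10.67 in Sar1A cells, 10.62 and 10.24 in Sar1B lines, and 11.20 and 10.93 in Sar1B:H79G lines. On 1387964_a_at the corresponding values were 8.35 and 8.41, 8.71, 8.54 and 8.37, and 9.02 and 8.77. Sar1B:H79G line 1 was the highest on each probe set, followed by Sar1B:H79G line 2, and all 8 arrays of these lines exceeded every other array on 1389297_at. The 2 probe sets correlated at r = 0.97 over the 7 lines.

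Against control cells the Ero1a difference was 0.67 ± 0.14 (1.59-fold, 95% interval 1.25 to 2.03, adjusted p = 0.024) and, on the dimmer probe set, 0.52 ± 0.11 (adjusted p = 0.023). Against Sar1B cells, on arrays of the same series, it was 0.63 ± 0.14 (1.55-fold, adjusted p = 0.0496) and 0.44 ± 0.11 (adjusted p = 0.062). Against Sar1A cells it was 0.40 ± 0.18 (adjusted p = 0.38). Sar1A cells stood 0.27 ± 0.18 above control cells, which did not pass the test (adjusted p = 0.40). The call against control cells was lost without control line 1, control line 2 or Sar1B:H79G line 1 (adjusted p = 0.094, 0.13 and 0.085) and with equal distributions (0.54, adjusted p = 0.060).

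Ero1b, an oxidase known in mice for its part in insulin-producing cells, behaved differently from its paralog. Its brighter probe set, 1382944_at, read 8.74 and 8.78 in control lines, 8.84 in Sar1A cells, 9.00 and 9.12 in Sar1B lines, and 8.92 and 9.05 in Sar1B:H79G lines. Arrays of the Sar1B lines (8.93 to 9.19) lay above those of the control lines (8.71 to 8.85), and those of the Sar1B:H79G lines (8.83 to 9.13) overlapped both. The differences from control cells were 0.30 ± 0.08 for Sar1B (adjusted p = 0.069) and 0.23 ± 0.08 for Sar1B:H79G (adjusted p = 0.085). The dimmer probe set, 1377470_at, stayed between 6.59 and 6.68 in all 7 lines, brighter than only 8.89% of probe sets, and correlated with the other at r = -0.09.

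**Figure D2:**
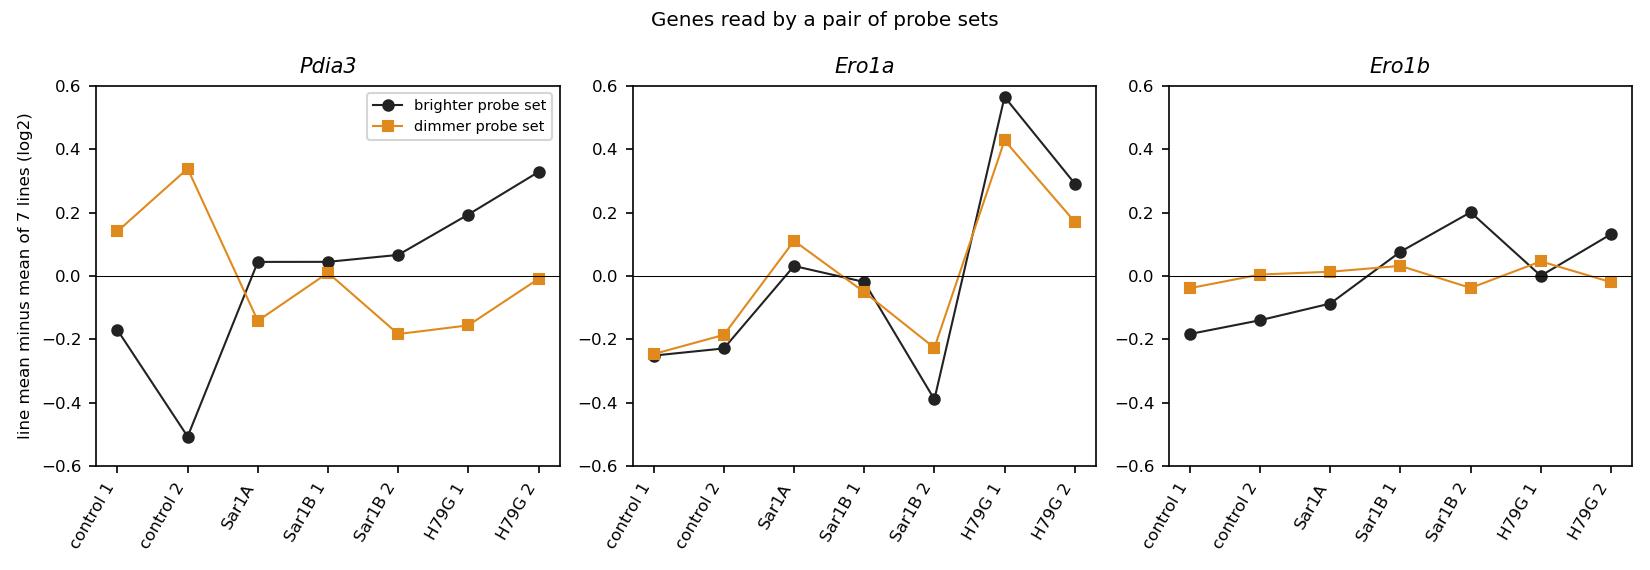
Line means of both probe sets of Pdia3, Ero1a and Ero1b, each as its distance in log2 units from the mean of the 7 lines; joining lines only guide the eye. The Ero1a probe sets moved together (r = 0.97), the Pdia3 probe sets moved oppositely (r = -0.81), and the dimmer Ero1b probe set was flat.

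Between Sar1B:H79G and Sar1B cells, 2 of the 10 genes were higher and 0 were lower, where 12.1% of all genes differed, 4.9% higher and 7.18% lower. The 2 genes were Ero1a, given above, and Txndc12. The median difference of the 10 genes was 0.18, against 0.01 over all genes. The count was 0 without either control line, Sar1B line 2 or Sar1B:H79G line 2. Of all probe sets, 4.77, 4.77, 3.97 and 6.29% were called in these cases, against 8.63% with all lines.

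Txndc12 (ERp18) is a small thioredoxin-fold protein of the ER with a single active site. It read 12.21 and 11.98 in control lines, 12.42 in Sar1A cells, 11.75 and 11.51 in Sar1B lines, and 12.21 and 12.37 in Sar1B:H79G lines. The 2 Sar1B lines were the lowest of the 7 and the Sar1A line was the highest. Sar1B:H79G exceeded Sar1B cells by 0.66 ± 0.12 (1.58-fold, 95% interval 1.29 to 1.94, adjusted p = 0.026) and control cells by 0.20 ± 0.12 (adjusted p = 0.28). Sar1B cells lay 0.47 ± 0.12 below control cells (adjusted p = 0.067) and 0.79 ± 0.15 below Sar1A cells (unadjusted p = 0.0016, adjusted p = 0.28), neither of which passed. The Txndc12 call against Sar1B cells was lost without either control line, which the fit uses for its estimate of spread (adjusted p = 0.053), and also when line 2 of Sar1B (0.10) or line 2 of Sar1B:H79G (0.085) was left out. The Ero1a call was lost in the same 4 cases and without Sar1B:H79G line 1 (adjusted p from 0.051 to 0.16). It was also lost with equal distributions, at a difference of 0.64 (adjusted p = 0.069).

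**Figure D3:**
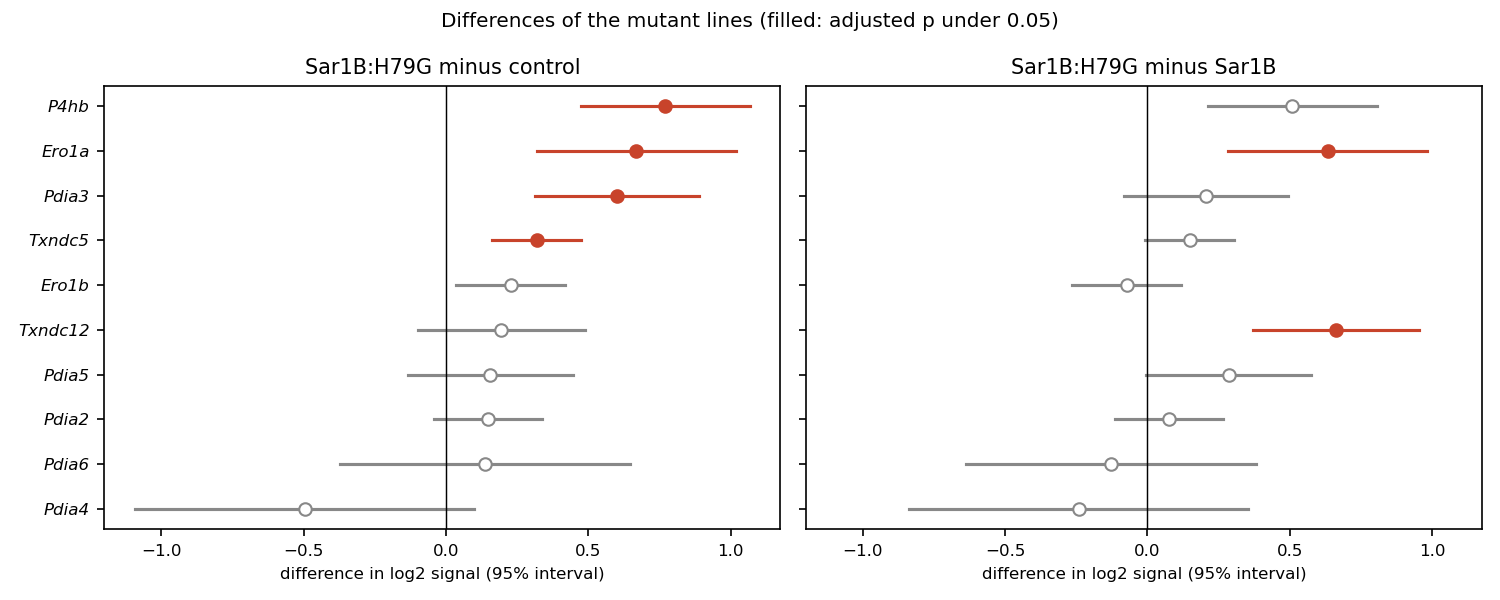
Differences in log2 signal of Sar1B:H79G from control cells (left) and from Sar1B cells (right) for the 10 genes, with 95% intervals from limma on line means. Filled red points passed the adjusted p of 0.05: P4hb, Ero1a, Pdia3 and Txndc5 on the left, Ero1a and Txndc12 on the right.

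Pdia4 (ERp72), a PDI with an extra active site domain, separated the 2 Sar1B:H79G lines. It read 11.94 and 11.80 in control lines, 11.62 in Sar1A cells, 11.47 and 11.76 in Sar1B lines, and 10.98 and 11.75 in Sar1B:H79G lines. Arrays of Sar1B:H79G line 1 spanned 10.80 to 11.22, below every other array of the series. Those of line 2 spanned 11.57 to 11.89 and overlapped control, Sar1A and Sar1B cells. The difference from control cells was -0.50 ± 0.24 (adjusted p = 0.19). It was -0.88 without Sar1B:H79G line 2, where it was called, and -0.11 without line 1.

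Pdia5, a PDI with several thioredoxin domains, also differed between the mutant lines, again with line 2 above line 1. It read 11.08 and 10.97 in control lines, 10.82 in Sar1A cells, 10.89 and 10.91 in Sar1B lines, and 11.01 and 11.36 in Sar1B:H79G lines. Only Sar1B:H79G line 2 stood apart, with arrays from 11.29 to 11.49, and the group difference from control cells was 0.16 ± 0.12 (adjusted p = 0.38).

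Pdia6 (P5), which works with the chaperone BiP and attenuates the UPR sensors PERK and IRE1 in mammalian cells, separated the Sar1B lines instead. It read 12.90 and 12.67 in control lines, 13.15 in Sar1A cells, 12.72 and 13.37 in Sar1B lines, and 12.85 and 12.98 in Sar1B:H79G lines. Sar1B line 2 was the highest of the 7 and Sar1B line 1 among the lowest, a gap of 0.66 within 1 group. The Sar1B:H79G difference from control cells was 0.14 ± 0.21 (adjusted p = 0.66), and the interval, from 0.77-fold to 1.56-fold, leaves changes of that size undetectable.

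Pdia2, a PDI best known from human pancreas, had a dim probe set, above 26.1% of the others, with line means from 7.30 to 7.52. Its group differences from control cells lay between 0.07 and 0.15 and none passed the test. No detection calls were used here, so it is not known whether the signal exceeds background.

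Overexpression of Sar1A or Sar1B without the mutation was compared with control cells in the same way. In Sar1A cells, 0 of the 10 genes were called, where 0.865% of all genes were, and 1 had an unadjusted p below 0.05 (Pdia3, 0.38 ± 0.15), as had 19.8% of all genes. In Sar1B cells, 0 of 10 were called, where 6.73% of all genes were, and 4 had an unadjusted p below 0.05 (Txndc5, Ero1b, Txndc12 and Pdia3), as had 27.2% of all genes. The difference of Pdia3 in Sar1B cells was 0.39 ± 0.12 (adjusted p = 0.092) and that of Txndc5 was 0.17 ± 0.06 (adjusted p = 0.15). These comparisons use the same control lines as that of the mutant. Between Sar1B:H79G and Sar1A cells 0 of 10 were called, where 4.2% of all genes were, and 2 of 10 had an unadjusted p below 0.05, as had 19.7% of all genes. Between Sar1B and Sar1A cells 0 of 10 were called, where 0.00703% of all genes were, and 1 of 10 had an unadjusted p below 0.05, as had 8.49% of all genes. For Sar1A, with its 1 line, the spread was taken from the other groups.

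The 10 genes did not vary as 1 unit over the 7 lines. Of 45 pairs of genes, 31 had a correlation of line means above 0, with a median r of 0.25 and a range from -0.93 (Pdia4 with Pdia2) to 0.93 (Txndc5 with Pdia3). P4hb correlated with Txndc5 at 0.88 and with Ero1a at 0.85, and with Pdia4 at -0.69. Each correlation rests on 7 lines in 4 groups and is given as a description. Among 9431 genes brighter than the median probe set, the 5 whose line means followed P4hb most closely were Fem1a (r = 0.992), Sgk2 (0.989), Plk2 (0.989), Spire2 (0.989) and Bspry (0.988). Fem1a encodes a substrate receptor of a ubiquitin ligase and Plk2 a polo-like kinase.

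The mRNAs of the proteins that P4hb joins did not move with P4hb mRNA as a set. Mttp, the large MTP subunit, read 10.77 and 10.67 in control lines, 9.78 in Sar1A cells, 11.20 and 11.02 in Sar1B lines, and 8.31 and 9.56 in Sar1B:H79G lines. The Sar1B:H79G lines were the lowest, line 1 below line 2. The Mttp difference from control cells was -1.78 ± 0.37 (adjusted p = 0.022) and from Sar1B cells -2.17 ± 0.37 (adjusted p = 0.021), opposite in sign to that of P4hb. P4ha2, a catalytic alpha subunit of collagen prolyl hydroxylase, was 0.48 ± 0.11 higher in Sar1B:H79G than in control cells (adjusted p = 0.029), with line means of 10.22 and 10.53 against 9.90 and 9.90. P4ha1, a second alpha subunit, differed by 0.72 ± 0.28 (adjusted p = 0.11), and its Sar1B:H79G line 1 equalled Sar1B line 1 at 10.54. P4ha3 differed by 0.01 ± 0.07, on a dim probe set with group means from 7.39 to 7.43. Whether that signal exceeds background is not known.

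Hspa5 (BiP), the ER chaperone that works with several PDIs, read 12.90 and 12.69 in control lines and 13.85 and 13.74 in Sar1B:H79G lines, a difference of 1.00 ± 0.10 (adjusted p = 0.0031). It read 13.28 in Sar1A cells and 12.96 and 13.14 in Sar1B lines, also above the control lines. The lectin chaperones of Pdia3 differed by only 0.07 each, Calr ± 0.09 and Canx ± 0.11 (adjusted p = 0.61 and 0.68). Of the 8 partner genes, 2 were higher, 1 was lower and 5 were not called, with a median difference of 0.19. Over all genes, 13.4% were higher and 10.6% lower.

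**Figure D4:**
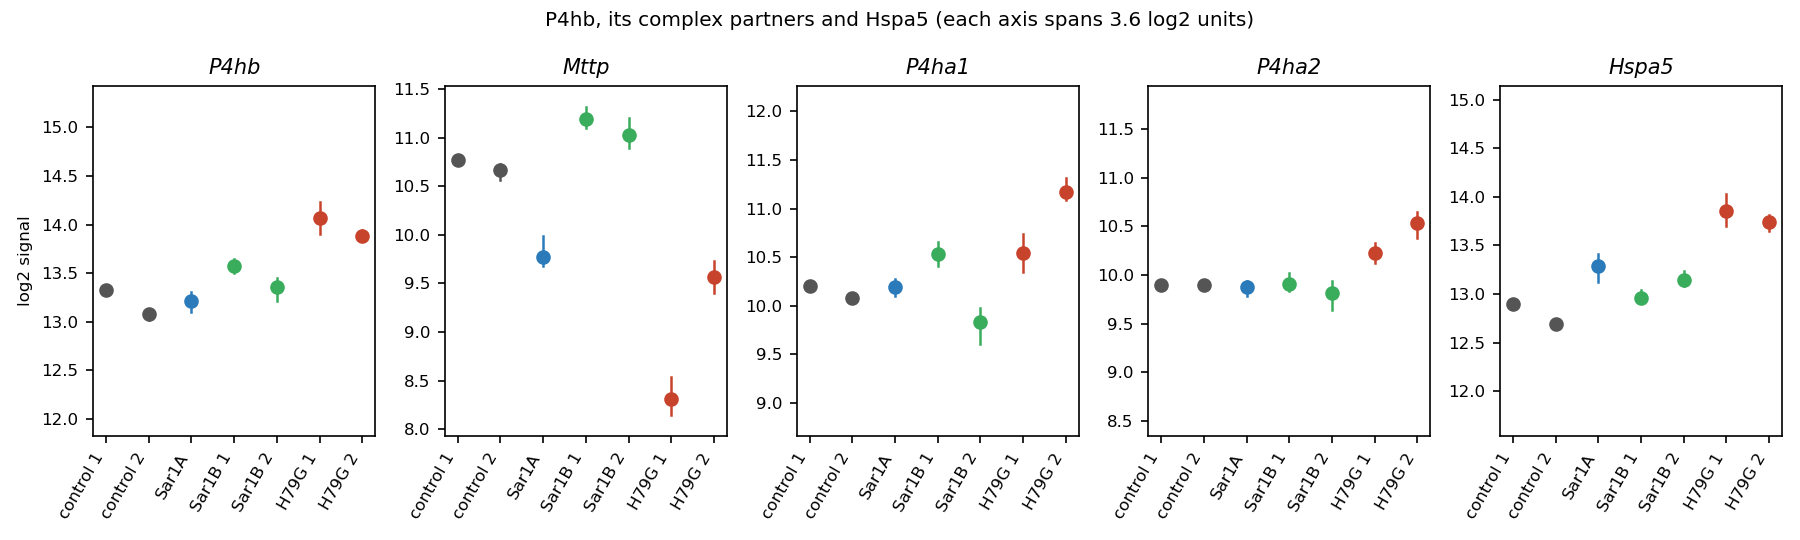
Log2 signal of P4hb, of its partners Mttp, P4ha1 and P4ha2, and of Hspa5 in the 7 cell lines; points are line means, bars span the arrays of a line, and H79G stands for Sar1B:H79G. P4hb and Hspa5 were highest in the Sar1B:H79G lines, whereas Mttp was lowest there, at 8.31 and 9.56.

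Other thioredoxin-fold proteins of the ER were divided between Sar1B:H79G and control cells. Of 16 such genes 14 were measured, 2 were higher and 2 were lower, with a median difference of 0.15. Among all genes, 13.4% were higher and 10.6% lower. The membrane-bound Tmx3 was higher by 0.72 ± 0.13 (adjusted p = 0.015), while Tmx2 was lower by 0.62 ± 0.08 (adjusted p = 0.0046) and Txndc15 by 0.60 ± 0.13 (adjusted p = 0.025). Erp44, which retains ERO1 oxidases in the early secretory pathway, was the other higher gene, at 0.40 ± 0.11 (adjusted p = 0.044), and is named after its value was seen. Tmx3 was also 0.70 higher in Sar1B than in control cells (adjusted p = 0.033), with a Sar1B:H79G difference from Sar1B of 0.02. In the Sar1A line Tmx3 stood 0.60 above the mean of control cells.

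Of 8 other ER oxidation and reduction enzymes, 2 were higher and 1 was lower, where 13.4% of all genes were higher and 10.6% lower. Their median difference was 0.07. Prdx4, the peroxiredoxin that uses the hydrogen peroxide made by ERO1 to oxidise PDIs, was higher by 0.49 ± 0.12 (adjusted p = 0.036). Prdx4 also lay above control cells by 0.39 in Sar1A (adjusted p = 0.19) and 0.38 in Sar1B cells (adjusted p = 0.10), and its Sar1B:H79G difference from Sar1B was 0.11 (adjusted p = 0.73). Vkorc1, the vitamin K epoxide reductase that is recharged by thioredoxin-like partners, was lower by 0.53 ± 0.13 (adjusted p = 0.033). Sumf1, which makes the catalytic residue of sulfatases, was 0.46 ± 0.13 below control cells without passing (adjusted p = 0.051), and Qsox2, a sulfhydryl oxidase named after its value was seen, was 0.24 ± 0.06 higher (adjusted p = 0.042).

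Of 8 transcription factors upstream of ER folding genes, 3 were higher in Sar1B:H79G than in control cells and 0 lower, with a median difference of 0.14. The shares of all genes were 13.4% higher and 10.6% lower. Ddit3 (CHOP), which activates Ero1a transcription in mouse cells, rose by 3.04 ± 0.24 (adjusted p = 0.0015), Atf4 by 1.61 ± 0.19 (adjusted p = 0.0042) and Atf6 by 1.07 ± 0.07 (adjusted p = 0.0011). Atf4 group means were 12.23 in control, 13.04 in Sar1A, 12.66 in Sar1B and 13.84 in Sar1B:H79G cells. These values are mRNA levels, and for ATF6 protein the paper found no change in Sar1B:H79G cells. Ddit3 line means were 12.07 and 12.36 in Sar1B:H79G cells and 8.83 to 9.57 in the other 5 lines. Line 2 minus line 1 of the Sar1B:H79G cells was 0.30 for Ddit3 and -0.27 for Ero1a. Whether Ddit3 has a part in the Ero1a difference was not tested. Xbp1, a regulator of many PDI genes, differed by -0.09 ± 0.16 (adjusted p = 0.73), and its spliced and unspliced forms were not told apart.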

How the data were processed

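Total RNA of 7 cell lines was measured on 25 Affymetrix rat arrays. The authors normalized raw intensities by loess and summarized probe sets with MAS 5 in CARMAweb, and deposited log2 values; their base was inferred from the range, and signal over background was not known. The number of lines, and of arrays within them, limits the precision. Arrays of a line were averaged (R 4.3.3, limma 3.58.1, statmod 1.5.0). lmFit and eBayes were run on 7 line means in 4 groups with 3 residual degrees of freedom, over 31042 probe sets after 57 array controls were left out. Benjamini-Hochberg adjustment covered all of them, and an adjusted p under 0.05 was called. A gene was represented by its probe set with the highest mean. Symbols came from the platform annotation, in which 13 of 13 gene IDs of the 10 genes matched RefSeq. The fit was tested on simulated data. Named genes were all 10 genes; per gene list the 3 largest differences of Sar1B:H79G from control cells, with Mttp, the P4ha subunits, Calr, Canx and Hspa5; and the 5 genes most like P4hb. The genes and lists were chosen with earlier results of these data known. Alternatives concerned the replicate unit, normalization, filters, pairing, probe sets and left-out lines. Start site sequences came from RefSeq (GRCr8).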

Additional observations from a re-analysis of the deposited data

Results flagged for a closer look

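Of 52 groups of 4 to 8 arrays tested with Dixon's rule over the 13 probe sets, 1 held an array far from the rest, where chance flags about 1 in 20 (5%). This was Pdia2 in the Sar1B:H79G cells: array 3 of line 1 read 7.67, the next array read 7.51, and the gap took 0.537 of the range of the 8 arrays.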

How the results depend on the processing

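Of 4 genes called between Sar1B:H79G and control cells, quantile normalization kept 1 and leaving out a line kept 0 to 4. Counts between Sar1B:H79G and Sar1B (2) became 0 with only these groups in the fit and 0 to 2 without a line. With each array as a replicate, which treats technical replicates as independent, the counts were 8 (Sar1B:H79G versus control), 5 (Sar1A versus control), 6 (Sar1B versus control), 6 (Sar1B:H79G versus Sar1B), 5 (Sar1B:H79G versus Sar1A) and 3 (Sar1B versus Sar1A), where 52.3, 36.2, 42.2, 31.8, 23.2 and 10.3% of all probe sets were called. With arrays fitted and the line as a random block they were 6, 2, 4, 4, 3 and 1 in that order, where 38, 19.3, 26.4, 22.2, 14.6 and 3.84% of all probe sets were called. With only the Sar1B:H79G and Sar1B groups in the fit, 4.77% of all probe sets were called. Quantile normalization called 1 gene for Sar1B versus control and 1 for Sar1B:H79G versus Sar1A, where 8.2 and 3.38% of all probe sets were called. The filter on dim probe sets called 1 for Sar1B:H79G versus Sar1A, where 6.07% of the probe sets kept were called. Line numbers did not pair the lines (r = 0.01, 0.19 and 0.08 between groups). With the line number as a replicate block the counts were 4, 0 and 3 for Sar1B:H79G versus control, Sar1B versus control and Sar1B:H79G versus Sar1B. Of all probe sets, 22.6, 6.46 and 8.45% were called in these comparisons. Of single-gene values under the alternatives, 758 stayed on their side of the threshold, 50 gained a call, 26 lost one and 0 called directions reversed; 20 of the 758, all uncalled, changed sign, as Pdia6 did between Sar1B:H79G and control cells with quantile normalization (0.14 to -0.15). The causes were not tested. With 2 lines a group, or 1 for Sar1A, small changes were not detectable, and brightness over background was not known.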
